A study of Mus musculus with 20 samples.

Results

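The Reg (regenerating islet-derived) genes encode small secreted C-type lectins of the gut and the exocrine pancreas. They were taken as the rows of the deposited table with the symbols Reg1, Reg2, Reg3a, Reg3b, Reg3d, Reg3g and Reg4. All 7 symbols were found once, so the family was 7 of the 51810 genes in the table, and all 7 passed the filter on low counts that left 28932 genes for testing. They were measured in medullary thymic epithelial cells (mTEC), the stromal cells of the thymus that make proteins of other organs and display them to developing T cells. There were 20 samples and 12 libraries, 3 in each of 4 groups: mTEClo and mTEChi sorted from mice labelled Trp53-WT (WT below), and mTEClo and mTEChi sorted from mice labelled Trp53-cHyper (cHyper below). Trp53 encodes the tumour suppressor p53. All groups came from thymi of mice of 4 to 5 weeks, with 75000 mTEC sorted per sample. The sources used here do not give the strain, sex, sorting gates, number of mice behind a sample, what the cHyper allele is or which cells carry it. By convention mTEChi carry more MHC class II or CD80 than mTEClo and are the more mature cells.

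Reg3g and Reg3b are made by enterocytes and Paneth cells and act on bacteria at the mucosal surface; Reg3g binds the peptidoglycan of Gram-positive bacteria. Reg1 and Reg2 are products of the pancreatic acinar cell, and Reg4 is made by secretory cells of the colon. In the gut, Reg3b and Reg3g are induced by interleukin 22 through the transcription factor Stat3, and in the thymus genes of this kind are tissue-restricted antigens, many of which depend on the transcriptional regulator Aire in mature mTEC.

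On mm10, the coordinates of the table placed 6 of the 7 genes in 1 cluster of 98.2 kb on chromosome 6 (78370657 to 78468872). From the lower coordinate upwards the order was Reg3b (78370657 to 78373466, plus strand), Reg3d (78375874 to 78378865, minus), Reg3a (78380709 to 78383827, plus), Reg2 (78395623 to 78408106, plus), Reg1 (78422711 to 78428667, plus) and Reg3g (78466269 to 78468872, minus). Reg4 lay apart on chromosome 3 (98222156 to 98236748, plus). The Reg intervals did not overlap one another. The genes are related in sequence and the sources used here do not say how fragments matching several places were handled, so a part of the fragments of one copy could be counted on another.

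The promoters are shown because all 7 genes had higher levels in mTEChi than in mTEClo (below). The lines give the 100 bases before the RefSeq start of each gene (GRCm38.p6, 5′ to 3′ on the gene's strand), with the motif TATAAA in capitals where it occurs:
Reg1, chr6:78425883-78425982, plus strand: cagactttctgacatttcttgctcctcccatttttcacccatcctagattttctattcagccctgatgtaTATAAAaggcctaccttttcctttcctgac
Reg2, chr6:78405055-78405154, plus strand: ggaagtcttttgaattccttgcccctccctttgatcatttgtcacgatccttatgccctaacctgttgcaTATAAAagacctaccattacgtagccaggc
Reg3b, chr6:78370785-78370884, plus strand: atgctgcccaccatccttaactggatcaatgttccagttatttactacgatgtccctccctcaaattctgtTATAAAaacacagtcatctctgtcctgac
Reg3g, chr6:78468875-78468974, minus strand: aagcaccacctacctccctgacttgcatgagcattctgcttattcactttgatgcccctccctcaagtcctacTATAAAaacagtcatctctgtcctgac
Reg3a, chr6:78380609-78380708, plus strand: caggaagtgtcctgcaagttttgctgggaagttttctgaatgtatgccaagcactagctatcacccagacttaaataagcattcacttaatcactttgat
Reg3d, chr6:78378866-78378965, minus strand: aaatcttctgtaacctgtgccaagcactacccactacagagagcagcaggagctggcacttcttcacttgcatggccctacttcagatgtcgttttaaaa
Reg4, chr3:98222056-98222155, plus strand: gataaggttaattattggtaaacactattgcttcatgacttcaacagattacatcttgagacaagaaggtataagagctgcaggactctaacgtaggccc
A TATAAA on the sense strand began at position -30, counted from the start, in Reg1 and Reg2, at -29 in Reg3b and at -27 in Reg3g, and the windows of Reg3a, Reg3d and Reg4 held none. Over the whole promoter window searched, 4 of 7 Reg promoters held the motif on the sense strand, against 7.59% of 32851 RefSeq mouse promoters. Within the 50 bases before the start, a narrower window than planned, it was 4 of 7 against 2.63%. The Reg3b and Reg3g windows were the most alike pair, with 76 identical bases in 103 aligned columns (73.8%) and a shared run of 20 bases, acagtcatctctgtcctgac, that ends at the start. Reg1 and Reg2 shared 65.1% of their aligned columns. The 4 promoters with TATAAA are thus pairs of alike sequences and not independent cases. The letters TTCNNNGAA, the form of a Stat site, searched on both strands of the 250 bases before the start, were present in Reg3b (at position -129) and Reg3d (at -238), against 7.02% of all promoters. A match of letters is a description of the window and not a site of binding.

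Library totals ran from 22.02 to 25.3 M fragments in replicate 3 of each group and from 42.1 to 47.9 M in replicates 1 and 2. In replicate 3 Xist stood at 1013 to 1760 CPM (fragments per M fragments of the library, on the TMM scale) and Ddx3y had 0 fragments. In replicates 1 and 2 Xist was at most 8.35 CPM and Ddx3y had 2745 or more fragments. Sex, depth and run scheme thus differed between replicate 3 and the others in the same way in each group. Whether replicates came from different animals is not said in the labels, and p-values reflect only how much these libraries varied. All 6 markers of thymic epithelium were detected in every group. Aire stood at 14.3 ± 2.6 CPM in WT mTEClo and 1918 ± 2.9 in WT mTEChi, and at 44.5 ± 6.46 and 1644 ± 321 in cHyper (SD, n = 3). Trp53 transcripts, which do not report on an altered protein, averaged 137 ± 0.958 CPM in WT mTEClo, 166 ± 11.6 in cHyper mTEClo, 101 ± 4.59 in WT mTEChi and 134 ± 4.66 in cHyper mTEChi.

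The first comparison asked how the Reg genes differ between mTEClo and mTEChi. Every Reg gene rose in mTEChi, in WT and in cHyper. Per gene length, Reg3g averaged 46.3 TPM (transcripts per M transcripts) in WT mTEClo, and each other member 1.43 TPM or less. The other members went from few or no fragments in mTEClo to levels between 0.0877 and 54.0 CPM in mTEChi. In bulk libraries, more cells with a transcript and more transcript per cell cannot be told apart. The plot of all 12 libraries shows the gap for each gene.

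**Figure D1:**
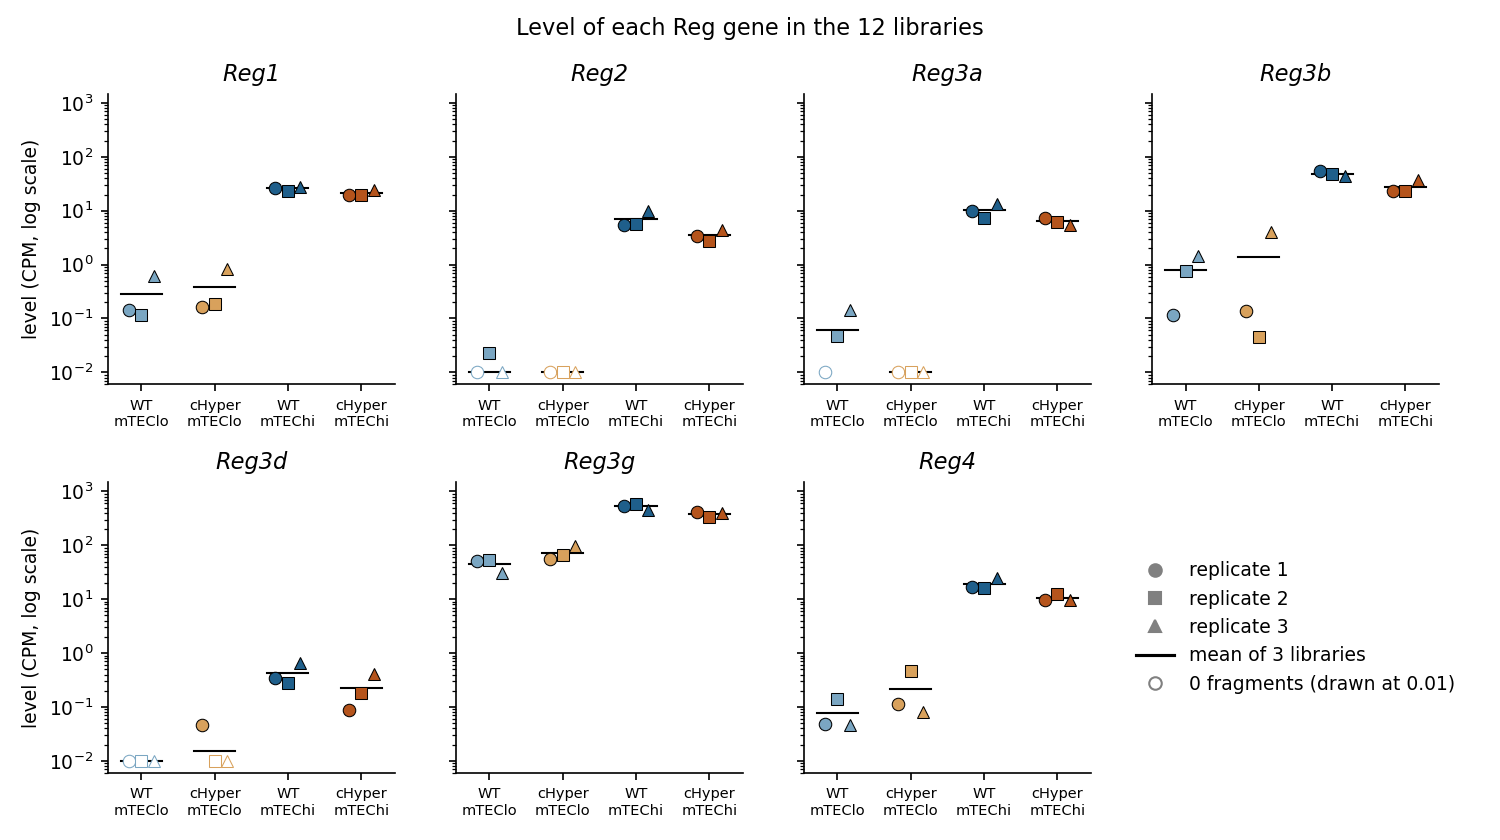
Level of each Reg gene in CPM (log axis) in the 3 libraries of each group; symbols mark the replicate number, bars the mean of 3 libraries, and open symbols libraries with 0 fragments, drawn at 0.01. For every gene the mTEChi libraries lie above the mTEClo libraries of the same genotype.

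Reg3g, the Gram-positive-directed lectin, stood at 51.4, 54.4 and 31.0 CPM in replicates 1, 2 and 3 of WT mTEClo and at 530.4, 597 and 455 CPM in WT mTEChi. In cHyper it stood at 54.8, 65.5 and 96.2 CPM in mTEClo and at 411, 339.6 and 393 CPM in mTEChi. All mTEChi libraries exceeded all mTEClo libraries. The fitted rise was 11.5-fold in WT (log2 3.53, SE 0.23, edgeR adjusted p = 5.69e-09) and 5.29-fold in cHyper (log2 2.40, SE 0.22, edgeR adjusted p = 2.66e-07). These were the smallest fitted rises of the 7 genes in either genotype.

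Reg3b, the other well-studied antimicrobial member, stood at 0.118, 0.764 and 1.45 CPM in WT mTEClo and at 54.0, 47.6 and 43.7 CPM in WT mTEChi. In cHyper it stood at 0.137, 0.046 and 4.03 CPM in mTEClo and at 23.7, 22.8 and 37.0 CPM in mTEChi. The mTEClo libraries were widely spread, with replicate 3 the highest in both genotypes. The fitted rise was log2 6.15 in WT (SE 0.89, edgeR adjusted p = 2.3e-05) and log2 4.60 in cHyper (SE 0.83, edgeR adjusted p = 0.000205). The cHyper value depended on single libraries: it was log2 8.15 without cHyper mTEClo replicate 3 and 3.92 without cHyper mTEClo replicate 1 or 2, and the WT value was 5.54 without WT mTEClo replicate 1. Reg3b had the largest fitted biological coefficient of variation of the family, 81.6%, against 18.6% for Reg3g and a median of 17.1% over all genes tested.

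Reg3a, the third lectin of the Reg3 group, had 5 fragments in WT mTEClo (0, 0.0463 and 0.141 CPM) and none in cHyper mTEClo. In mTEChi it reached 9.80, 7.29 and 13.2 CPM in WT and 7.33, 6.25 and 5.51 CPM in cHyper. The fitted rise in WT was log2 7.63 (SE 0.50, edgeR adjusted p = 2.62e-08), and leaving out 1 library moved it to log2 6.93 (WT mTEClo replicate 1) or 8.52 (WT mTEClo replicate 3). In cHyper the pooled level was at least 243-fold higher in mTEChi, with the mTEClo group set to 3 fragments in all (edgeR adjusted p = 4.22e-08). Reg3d, also called INGAP-related protein, was the weakest member. It had no fragment in WT mTEClo, 2 in cHyper mTEClo, 47 in WT mTEChi (0.339, 0.281 and 0.649 CPM) and 22 in cHyper mTEChi (0.0877, 0.184 and 0.411 CPM). Its pooled level was at least 13.8-fold higher in WT mTEChi (edgeR adjusted p = 0.000446). In cHyper the ratio was 10.9 (95% counting interval 2.67 to 95.3, edgeR adjusted p = 0.0124). That call was lost when cHyper mTEClo replicate 2 was left out (edgeR adjusted p = 0.0514, log2 2.75 against 3.35) and when replicate 3 of every group was left out (0.0853). The log2 value was 5.97 without cHyper mTEClo replicate 1, which held both mTEClo fragments, and 2.70 without cHyper mTEChi replicate 3.

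Reg1, the lithostathine of pancreatic juice, stood at 0.142, 0.116 and 0.610 CPM in WT mTEClo and at 26.6, 23.7 and 27.4 CPM in WT mTEChi. In cHyper it stood at 0.160, 0.184 and 0.814 CPM in mTEClo and at 19.8, 19.6 and 24.1 CPM in mTEChi. Replicate 3 was the highest mTEClo library in both genotypes, and the mTEChi libraries lay close together. The fitted rise was log2 6.77 in WT (SE 0.45, edgeR adjusted p = 6.85e-09) and log2 5.997 in cHyper (SE 0.43, edgeR adjusted p = 1.93e-08), and it was 7.57 without WT mTEClo replicate 3 and 6.88 without cHyper mTEClo replicate 3. Reg2, its close paralogue, had 1 fragment in WT mTEClo, in replicate 2, and none in cHyper mTEClo. In mTEChi it stood at 5.39, 5.56 and 9.95 CPM in WT and at 3.38, 2.79 and 4.32 CPM in cHyper. The ratio in WT was 694 (95% counting interval 124 to 27462, edgeR adjusted p = 2.37e-08), and in cHyper the pooled level was at least 125-fold higher in mTEChi (edgeR adjusted p = 9.89e-08).

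Reg4, the member outside the cluster, stood at 0.0472, 0.139 and 0.0469 CPM in WT mTEClo and at 16.6, 16.3 and 24.8 CPM in WT mTEChi. In cHyper it stood at 0.114, 0.460 and 0.0814 CPM in mTEClo and at 9.80, 12.3 and 9.74 CPM in mTEChi. Its levels were higher in mTEChi, like those of the cluster genes. Reg4 and most cluster genes entered the test through mTEChi (below), so the shared direction is a description only. The fitted rise was log2 7.79 in WT (SE 0.45, edgeR adjusted p = 1.64e-09) and log2 5.47 in cHyper (SE 0.39, edgeR adjusted p = 1.81e-08). The values were 8.53 without WT mTEClo replicate 2 and 6.66 without cHyper mTEClo replicate 2.

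In WT 7 of 7 Reg genes rose, against 40.2% of all genes tested (29.4% fell), and in cHyper 7 of 7, against 38.7% (25.8% fell). Reg3b and Reg3g alone of the 7 passed the filter on the mTEClo libraries by themselves. Reg1, Reg2, Reg3a, Reg3d and Reg4 entered the test through mTEChi, where they are high, so their direction was fixed by entry. Their adjusted p-values for mTEChi against mTEClo, given above, are therefore no independent evidence of a rise. These counts and the medians below are descriptions. In size, 17.7% of all genes had a fitted rise in WT at or above that of the smallest member, Reg3g, and 5.59% at or above the median member. The corresponding shares in cHyper were 22.7% and 8.17%. The median log2 change of the 7 genes was 6.97 in WT, or 6.77 with Reg3d at its bound, against 0.12 over all genes. In cHyper it was 5.47, fitted or with Reg2 and Reg3a at their bounds, against 0.13. Of all genes called in WT, 11626 rose and 8493 fell, or 13121 and 6268 when libraries were scaled by their totals, a scaling that shifted the median of all genes by 0.22 on the log2 scale and left 7 of 7 Reg genes called. In cHyper the split was 11193 and 7455, or 12450 and 5558 with library totals, and the shift was 0.17. The summed levels of other cells' markers differed between mTEClo and mTEChi too. The 8 myeloid and dendritic cell markers summed to between 30.3 and 34.3 CPM in WT mTEClo and 496 to 664 in WT mTEChi, the 8 thymocyte markers to 11.1 to 24.4 and 56.8 to 65.9, and the 6 markers of immature mTEC to 14561 to 18332 and 1487 to 1816. In cHyper these sums were 28.9 to 47.5 and 490.1 to 551, 17.5 to 39.2 and 64.8 to 80.8, and 14314 to 15703 and 2557 to 3789. None of these markers was at 0 in all libraries of a group, and their part in the Reg result was not tested.

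Levels of different Reg genes were compared as deposited TPM, which divides by gene length. In WT mTEChi the order was Reg3g (613 ± 97.3 TPM), Reg3b (104 ± 16.9), Reg1 (70.2 ± 6.37), Reg4 (45.9 ± 9.52), Reg3a (29.9 ± 8.03), Reg2 (17.7 ± 5.75) and Reg3d (1.31 ± 0.556; SD, n = 3). The libraries of neighbouring genes in this order did not overlap except for Reg3a (21.4 to 37.4 TPM) and Reg2 (14.2 to 24.4). In cHyper mTEChi the order of the means was the same, but Reg3b (45.1 to 71.5 TPM) and Reg1 (48.9 to 58.9) overlapped, and so did Reg4 (21.1 to 27.2) and Reg3a (14.8 to 21.6). Reg3g made up 94.0% ± 6.11 of the summed Reg TPM in WT mTEClo and 69.2% ± 4.95 in WT mTEChi, and 95.7% ± 4.07 and 72.1% ± 2.66 in cHyper. In both genotypes the mTEClo and mTEChi shares did not overlap. Reg3b followed with 11.8% ± 1.12 in WT mTEChi and Reg1 with 8.02% ± 1.09.

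**Figure D2:**
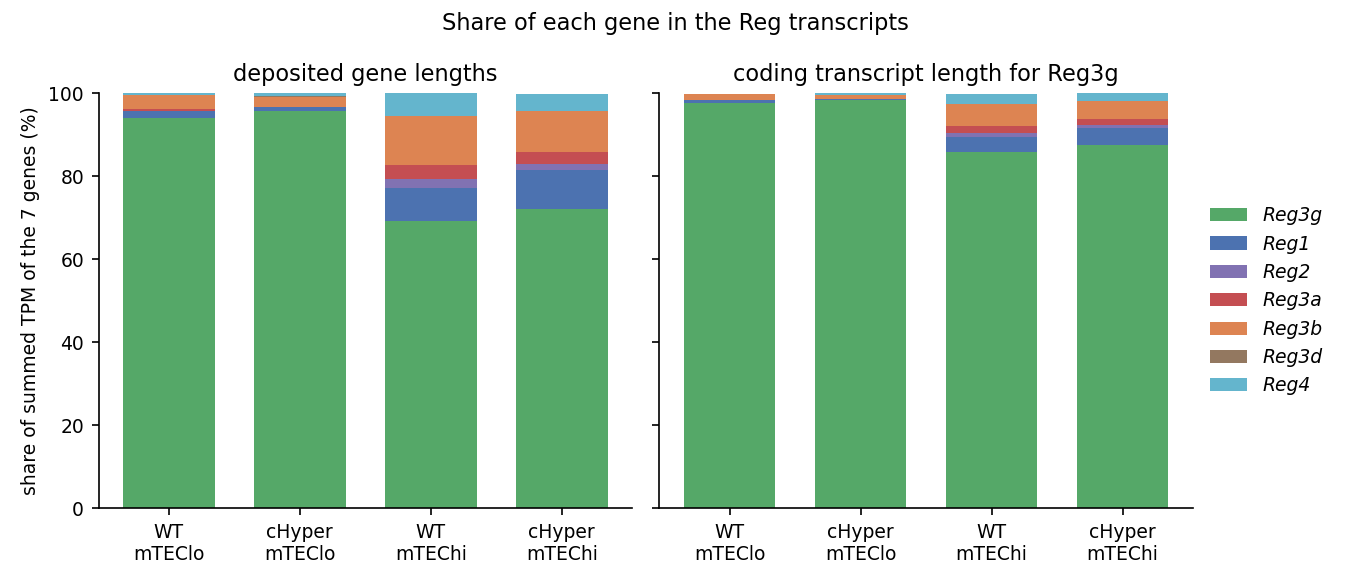
Mean share (%) of each Reg gene in the summed TPM of the 7 genes, for the 4 groups, with the deposited gene lengths on the left and with the length of the protein-coding transcript for Reg3g on the right. Reg3g holds 69.2% of the sum in WT mTEChi with deposited lengths and 86.0% with the coding transcript for Reg3g alone.

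The share of Reg3g depends on its length. The table gives 2114 bases, equal to the union of its exons in GENCODE M21, which includes a retained-intron transcript of 2089 bases, while its protein-coding transcript has 771. With 771 bases the share of Reg3g in WT mTEChi was 86.0%, a setting chosen after the data were seen. As a share of fragments it was 82.4%. The other genes kept their deposited lengths in that setting. Those of Reg3b (1142 bases) and Reg2 (952) also exceed their longest protein-coding transcripts (783 and 698). Coding lengths for these genes too would lower the 86.0%. The summed level of the 7 genes was 46.8 ± 11.9 CPM in WT mTEClo, 74.2 ± 24.0 in cHyper mTEClo, 638 ± 61.6 in WT mTEChi and 451 ± 41.0 in cHyper mTEChi.

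The Reg genes were set beside related lists. Of all genes tested, 40.2% rose and 29.4% fell in WT mTEChi, with a median log2 change of 0.12. As for the Reg genes, those with few mTEClo fragments could enter the test through mTEChi, so the list counts and medians are descriptions. Of 20 other gut antimicrobial and lectin genes tested, 19 rose in WT mTEChi and 1 fell (Sprr2a1, log2 -3.18), with a median log2 change of 5.04. The ribonuclease gene Ang4 rose from 0.601 ± 0.0649 to 58.8 ± 10.4 CPM, the nitric oxide synthase gene Nos2 from 1.48 ± 0.686 to 278 ± 46.9, and S100a9, a subunit of calprotectin, from 2.23 ± 0.213 to 81.7 ± 12.2. Of 23 exocrine pancreas genes 19 rose and 2 fell (median 4.78, or 4.59 with the 4 genes without mTEClo fragments at their bounds), among them the elastase gene Cela1, from 0.0545 ± 0.0129 to 2.74 ± 0.839 CPM. Of 20 gut epithelium genes 19 rose and none fell (median 3.38), and of 20 goblet, Paneth and enteroendocrine genes 16 rose and 1 fell (median 2.77), with the mucin gene Muc2 going from 0.304 ± 0.117 to 21.04 ± 3.61 CPM. Lyz1, Lgals4 and Saa1 are in more than 1 list.

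**Figure D3:**
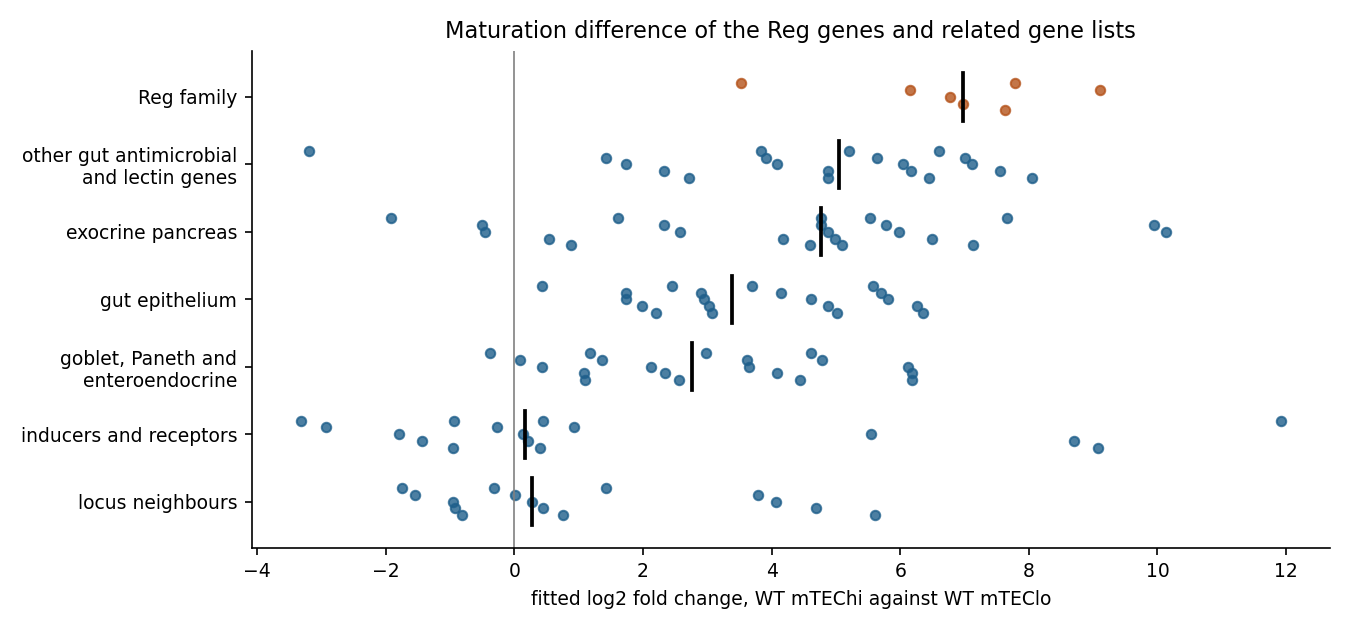
Fitted log2 fold change of WT mTEChi against WT mTEClo for each gene tested (points) of the Reg family and 6 other lists, with the median of each list as a bar; points are shifted vertically for visibility. The Reg genes lie between 3.53 and 9.10, while the inducer and receptor genes and the locus neighbours lie on both sides of 0. Most of the locus neighbours tested are near Reg4.

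Genes of the pathway that induces Reg3 lectins were taken from a list of inducers and receptors. Of 16 inducer and receptor genes tested, 7 rose and 6 fell in WT mTEChi, beside 40.2% and 29.4% of all genes, and 8 and 7 in cHyper, beside 38.7% and 25.8%. Il22, the cytokine that induces Reg3b and Reg3g in the gut, had no fragment in WT mTEClo and 12.8 ± 1.29 CPM in WT mTEChi, at least 455-fold higher (edgeR adjusted p = 2.19e-10). Its soluble inhibitor Il22ra2 rose from 0.0466 ± 0.0463 to 2.74 ± 0.302 CPM, and its receptor chain Il22ra1 from 0.865 ± 0.0528 to 1.65 ± 0.277. Stat3 rose from 355 ± 39.1 to 467 ± 39.4 CPM (log2 0.40, edgeR adjusted p = 0.00416). Socs3, a Stat3 target that limits the pathway, fell from 679 ± 138 to 89.2 ± 12.3 CPM, and Il6st, the shared receptor chain of the interleukin 6 family, from 797 ± 158 to 79.8 ± 13.2. Extl3, described as a receptor for Reg proteins, fell from 106 ± 7.42 to 30.7 ± 2.83 CPM (log2 -1.79, edgeR adjusted p = 7.38e-10).

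The genes beside the Reg genes were examined next. Within 500 kb of the cluster or of Reg4 lay 35 other genes of the table, of which 15 were tested. Of these, 5 rose and 5 fell in WT mTEChi, beside 40.2% and 29.4% of all genes. Near the cluster only Ctnna2 and a predicted gene were tested, 391 and 154 kb from the nearest Reg gene. The rest lay near Reg4, so these counts say little about the surroundings of the cluster. Ctnna2, a catenin gene and a neighbour of the cluster, rose from 0.858 ± 0.232 to 13.9 ± 1.08 CPM. Near Reg4, Phgdh and Hsd3b2 rose (log2 1.42 and 5.61), Notch2 and Zfp697 fell (log2 -1.54 and -0.92), and Sec22b and Pde4dip had log2 values of 0.014 and 0.27 that did not pass the test.

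The second comparison set cHyper mTEChi against WT mTEChi. All 7 Reg genes had lower mean levels in cHyper than in WT, and in all 21 same-numbered pairs of libraries (7 genes, 3 pairs each) the cHyper library was the lower. None of the 7 passed the test by edgeR, against 1.98% of all genes called, in a fit that did not use the replicate number. With that number as a block Reg2 passed, with 4.32% of all genes called. Reg2 and Reg4 were called by DESeq2 (5.03% of all genes called), by limma-voom (2.98%) and by edgeR without the filter on low counts (1.81%). Reg2, Reg3b and Reg4 were called when edgeR was given only the groups compared (4.03%). The differences thus had one sign in all 7 genes, and the call depended on the tool and its settings.

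Reg2, the acinar paralogue of Reg1, averaged 6.96 ± 2.59 CPM in WT and 3.49 ± 0.77 in cHyper mTEChi, a log2 difference of -0.997 (SE 0.29, 95% interval -1.63 to -0.37, edgeR adjusted p = 0.118). With the replicate number as a block it was -0.95 and passed (edgeR adjusted p = 0.0411), with 4.32% of all genes called. Reg4 averaged 19.2 ± 4.82 and 10.6 ± 1.46 CPM, a log2 difference of -0.85 (SE 0.27, 95% interval -1.44 to -0.27, edgeR adjusted p = 0.148). It passed in DESeq2 (adjusted p = 0.0117), in limma-voom (0.0326), in edgeR without the filter (0.0392) and without cHyper mTEClo replicate 2 (0.0495). The sizes leaned on WT mTEChi replicate 3, the highest WT library for both genes. Without it the log2 difference was -0.63 for Reg4 (edgeR adjusted p = 0.454) and -0.66 for Reg2 (0.402). Without replicate 3 of every group the log2 difference was -0.57 for Reg4 (0.493) and -0.82 for Reg2 (0.271). For both genes every cHyper library lay below every WT library.

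Reg3g averaged 527 ± 71.0 CPM in WT and 381 ± 37.2 in cHyper mTEChi (log2 -0.47, SE 0.21, 95% interval -0.92 to -0.019, edgeR adjusted p = 0.314). Reg3b averaged 48.4 ± 5.18 and 27.8 ± 7.91 CPM (log2 -0.81, 95% interval -2.19 to 0.58, edgeR adjusted p = 0.593), and passed when only the groups compared were fitted (adjusted p = 0.0223). Reg3a averaged 10.1 ± 2.98 and 6.36 ± 0.914 CPM (log2 -0.66, edgeR adjusted p = 0.309), Reg1 25.9 ± 1.95 and 21.2 ± 2.53 (log2 -0.29, edgeR adjusted p = 0.685), and Reg3d 0.423 ± 0.198 and 0.228 ± 0.166 (log2 -0.96, edgeR adjusted p = 0.538). The cHyper and WT libraries did not overlap for 4 of the 7 genes (Reg2, Reg3b, Reg3g and Reg4), against 13.3% of genes with every cHyper library below every WT library, and overlapped for Reg1, Reg3a and Reg3d. A lower value in each of the 3 same-numbered pairs was found for 7 of 7 Reg genes and for 23.8% of genes with a fragment in mTEChi. The Reg genes share their libraries, so these counts are not independent observations.

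**Figure D4:**
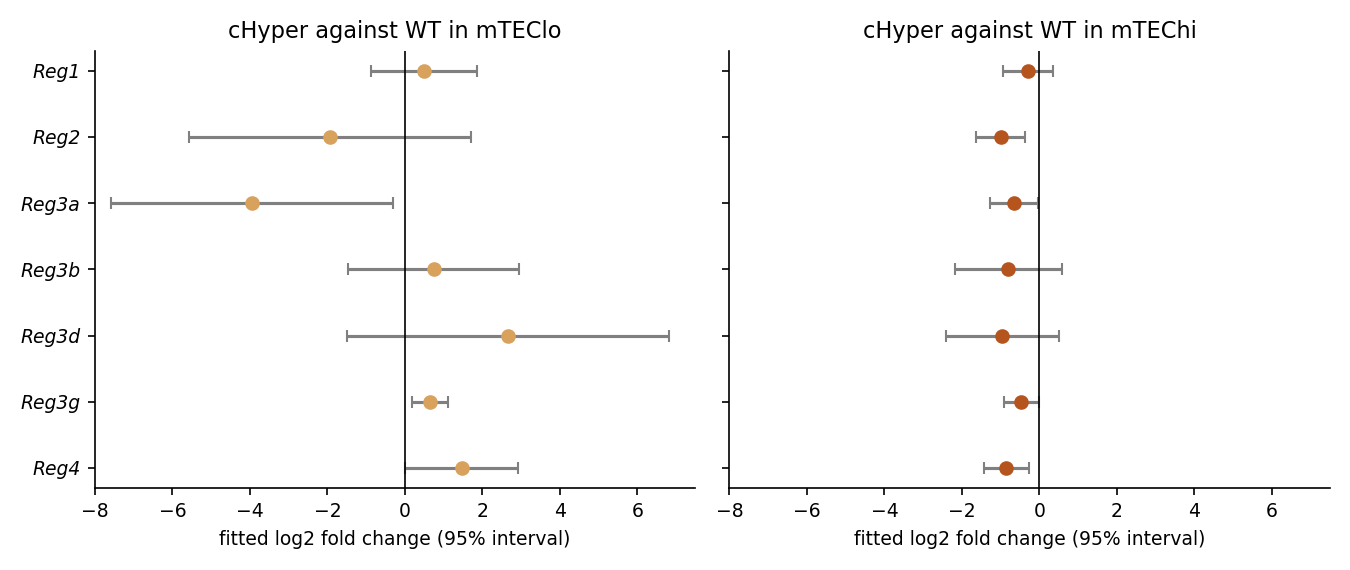
Fitted log2 fold change of cHyper against WT for each Reg gene, with its 95% interval (bars), in mTEClo on the left and mTEChi on the right. In mTEChi all 7 points lie between -0.997 and -0.29; in mTEClo they lie on both sides of 0 with wide intervals for the genes with few fragments.

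The median log2 difference of the Reg genes in mTEChi was -0.81, against -0.0037 over all genes. It was -0.33 for the other gut antimicrobial and lectin genes, -0.24 for exocrine pancreas genes, -0.35 for gut epithelium genes and -0.27 for goblet, Paneth and enteroendocrine genes, and no gene of these 4 lists was called. Among the inducers none was called either: Il22 stood at 12.8 ± 1.29 and 13.0 ± 1.06 CPM, Stat3 at 467 ± 39.4 and 495 ± 11.3, and Extl3 at 30.7 ± 2.83 and 37.7 ± 1.65 (log2 0.30, edgeR adjusted p = 0.145). Of all genes called in mTEChi, 451 were higher and 121 lower in cHyper, or 335 and 185 with library totals and 352 and 181 with DESeq2 size factors. The 6 immature mTEC markers summed to 1487 to 1816 CPM in WT and 2557 to 3789 in cHyper mTEChi, and the 8 mature mTEC markers to 13806 to 17380 and 13593 to 14600. Without overlap between the genotypes, summed markers were also higher in cHyper for thymic epithelium (2589 to 2966 and 3375 to 4039) and cortical epithelium (593 to 693 and 724 to 789.98), and lower for endothelium (23.8 to 27.3 and 18.3 to 19.8) and erythroid cells (39.7 to 53.8 and 36.4 to 38.4). The part of these differences in the Reg values was not tested.

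The third comparison asked the same of mTEClo. No Reg gene passed by edgeR, against 9.16% of all genes called. Reg3g was called by DESeq2 (adjusted p = 0.0284, 13.5% of all genes called) and by edgeR without the filter (adjusted p = 0.00878, 6.56%), and limma-voom called 0 (9.23%). Reg3g averaged 45.6 ± 12.7 CPM in WT and 72.2 ± 21.5 in cHyper (log2 0.65, SE 0.21, 95% interval 0.20 to 1.11, edgeR adjusted p = 0.0723). Every cHyper library exceeded every WT library, as for 12.2% of genes with a fragment in mTEClo. The size rested on replicate 3: the log2 ratio was 0.090 in pair 1, 0.27 in pair 2 and 1.63 in pair 3, and the fitted value was 0.17 without replicate 3. It passed without cHyper mTEClo replicate 1 (edgeR adjusted p = 0.0381). Summed markers of other cells also differed between WT and cHyper mTEClo without overlap: fibroblasts (31.7 to 36.2 CPM in WT, 63.99 to 113 in cHyper), cortical epithelium (2227 to 3173 and 3226 to 3455), erythroid cells (12.4 to 20.1 and 3.62 to 8.57), endothelium (8.05 to 9.90 and 5.98 to 6.56) and B cells (5.74 to 9.47 and 4.60 to 5.45). Their part in the Reg values was not tested.

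The other Reg genes had few fragments in mTEClo. Reg4 averaged 0.0777 ± 0.053 CPM in WT and 0.218 ± 0.21 in cHyper, from 9 and 27 fragments (log2 1.47, edgeR adjusted p = 0.212). The log2 value was 0.28 without cHyper mTEClo replicate 2 (edgeR adjusted p = 0.911) and 2.24 without WT mTEClo replicate 2 (0.157). Reg1 averaged 0.289 ± 0.278 and 0.386 ± 0.371 CPM (log2 0.48, edgeR adjusted p = 0.714). For Reg3b the sign of the difference itself depended on 1 library: the log2 value was 0.74 (edgeR adjusted p = 0.731) with all libraries and -2.86 without cHyper mTEClo replicate 3. Reg3a had 5 fragments in WT and 0 in cHyper, Reg2 1 and 0, and Reg3d 0 and 2. None of these 3 passed the test (Reg3a edgeR adjusted p = 0.178), and counts this low give no precise level.

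The related lists in mTEClo are given beside 9.16% of all genes called in either direction. Socs3 was the 1 inducer or receptor gene called, from 679 ± 138 to 346 ± 10.4 CPM (log2 -0.97, edgeR adjusted p = 0.00129). Of the other gut antimicrobial genes, the intelectin gene Itln1 and the galectin gene Lgals4 fell (log2 -1.23 and -0.76) and Sprr2a1 rose (log2 1.20). Of the gut epithelium genes 4 of 20 fell, among them Vil1, which encodes the microvillus protein villin (log2 -1.69). Of 23 exocrine pancreas genes 2 rose, among them Rbpjl (log2 1.56), and of 20 goblet, Paneth and enteroendocrine genes 2 fell, Chgb and Ghrl (log2 -2.29 and -1.83). Of the tested neighbours of the Reg genes only Phgdh was called, and it rose (log2 0.60, edgeR adjusted p = 0.0084).

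The last comparison asked whether the genotype effect itself differed between mTEClo and mTEChi. No Reg gene was called by edgeR, against 2.06% of all genes. Reg3g and Reg4 were called by DESeq2 (4.93% of all genes) and by edgeR without the filter (2.43%), and limma-voom called 0 (1.75%). For Reg3g the effect in mTEChi was lower than that in mTEClo by a log2 value of -1.12 (SE 0.30, 95% interval -1.77 to -0.48, edgeR adjusted p = 0.0734, DESeq2 adjusted p = 0.00702). For Reg4 it was -2.32 (SE 0.73, 95% interval -3.88 to -0.76, edgeR adjusted p = 0.133, DESeq2 adjusted p = 0.0106). Single libraries moved the Reg4 value: it was -1.13 without cHyper mTEClo replicate 2, which holds 20 of the 27 fragments of its group (edgeR adjusted p = 0.592), and -3.10 without WT mTEClo replicate 2 (0.107). The Reg3g value was -0.75 without replicate 3 (edgeR adjusted p = 0.0911). Put another way, the step from mTEClo to mTEChi was 11.5-fold for Reg3g in WT and 5.29-fold in cHyper, and these comparisons share no libraries.

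For Reg1, Reg3g and Reg4 all 3 same-numbered pairs were higher in cHyper in mTEClo and lower in cHyper in mTEChi, a pattern held by 2.84% of 28000 genes.

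**Figure D5:**
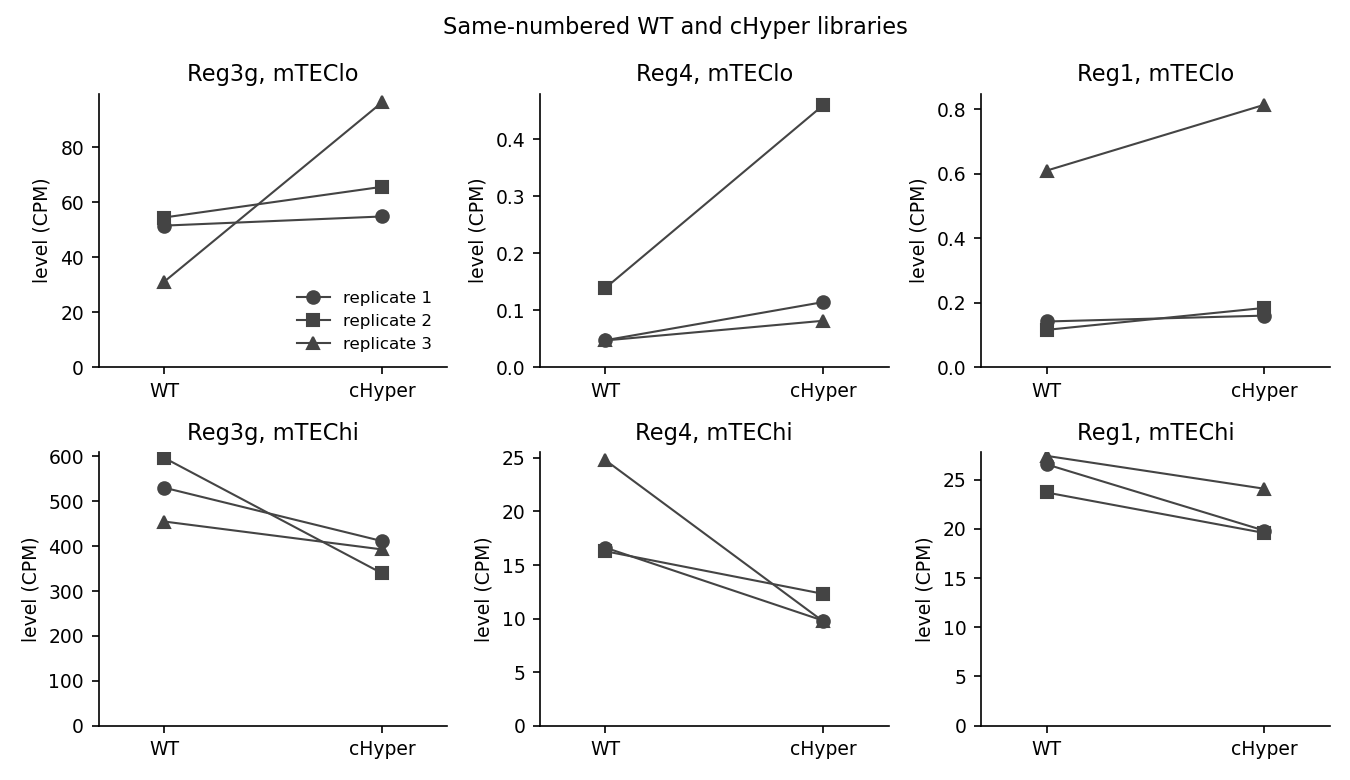
Level (CPM, axes from 0 and different in each panel) of Reg3g, Reg4 and Reg1 in same-numbered WT and cHyper libraries, joined by lines, in mTEClo (top) and mTEChi (bottom). Each line goes up in mTEClo and down in mTEChi, and the step of Reg3g in mTEClo is largest in replicate 3.

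For 6 of the 7 Reg genes, all but Reg3d, whose mean was under 1 CPM, the most alike genes were sought among 15952 genes that averaged 1 CPM or more, by Pearson's r of log2(CPM + 0.5), as a description over 12 libraries that share the gap between mTEClo and mTEChi. Reg3g was most like the mucin gene Muc5ac (r = 0.994), F5 and Grik3. Reg3a was most like Retnlb, the resistin-like protein of goblet cells (r = 0.999), Sult1c1 and Pax8. Reg1 was most like Loxl4 (r = 0.998), Psors1c2 and Pgc, Reg2 like Gpr101 (r = 0.997), Sprr3 and Tafa3, Reg3b like Sgsm1 (r = 0.993), Spata13 and Fndc7, and Reg4 like Slc29a4 (r = 0.999), Cplx3 and Scrt2. Within the 6 mTEChi libraries, where that gap plays no part, the nearest genes were others: Wee2 for Reg3g (r = 0.986), Muc5b for Reg3b (r = 0.994), Foxred2 for Reg3a (r = 0.996), Slc15a1 for Reg1 (r = 0.992), Igfbpl1 for Reg2 (r = 0.997) and H2-M9 for Reg4 (r = 0.996). Each is the highest r among 15952 genes in only 6 libraries, where values this high can arise without any relation. Genotype and replicate differences also remain in these libraries, so the names are a description only. Between Reg genes, r over the 6 mTEChi libraries was highest for Reg1 and Reg3b (0.914) and lowest for Reg3d and Reg3g (0.248).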

How the data were processed

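The submitters' processing notes name mm10 as the build and featureCounts (Subread 2.0.1), TopHat2 2.1.1 and SAMtools 1.9 as tools. The sources used here do not give the strand setting, annotation release or treatment of multiply matching fragments. The authors deposited 1 table with fragment counts per gene for 12 libraries, with 1 column for each replicate number although the labels list 2 runs for replicates 1 and 2, which appear to be combined in it, and TPM values that the authors computed from counts and the deposited gene lengths. TPM entered no test. A further 1 column of per-sample values was not used.

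The quasi-likelihood F test of edgeR 4.0.16 (R 4.3.3) was run on these counts after TMM scaling and filterByExpr by group. A single fit on the 4 group means held all 12 libraries and 8 residual degrees of freedom, with Benjamini-Hochberg adjustment over 28932 genes and a threshold of 0.05. Levels are CPM on the TMM scale. Alternatives were DESeq2 1.42.0, limma-voom (limma 3.58.1), other scalings and filters, only the groups compared, the replicate number as a block, and each library left out. Counts were simulated with the design of the mTEChi genotype comparison (27769 genes). In them 72 of 100 genes raised 2-fold and 98 of 100 raised 4-fold were called, and 11 of 27569 unchanged genes. The raised genes averaged 1 CPM or more. Apart from the raise, each gene had the same mean in all 4 groups, and libraries shared no replicate effect. The Reg genes differ in these points, so the shares do not give the power for a fall in a Reg gene.

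Same-numbered libraries deviated together. The r of deviations from group means was 0.171 to 0.353 for replicates 1 and 2. It was 0.297 to 0.462 for replicate 3, which differed in sex and depth in every group. For different numbers it was -0.338 to 0.0936. Deviations cancel out within a group, so these values are not independent of those for same numbers. The numbers were therefore used to pair libraries in the same-numbered comparisons and in the block alternative. The main edgeR fit did not use the numbers, so variation shared by same-numbered libraries counted as residual spread in it. The pairing comes from the data and the numbers in the labels. The floor for a group without fragments was 3 fragments, and counting intervals (95%, exact) cover counting error only. The members and lists were chosen with earlier results of these data known. Named genes were all Reg genes, Trp53, Aire, up to 3 called genes of smallest p per list or genes with a stated role, and tested named neighbours within 500 kb, of which 1 is not reported here. Sequences are from RefSeq promoters (GRCm38.p6), in which all 7 genes matched.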

Additional observations from a re-analysis of the deposited data

Results flagged for a closer look

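For Reg1, Reg3g and Reg4 every same-numbered pair of libraries was higher in cHyper than in WT in mTEClo and lower in mTEChi, which 2.84% of 28000 genes also showed. The difference between the genotype effects was -0.78 on the log2 scale for Reg1, -1.12 for Reg3g and -2.32 for Reg4, and none passed the edgeR test of the difference (adjusted p = 0.695, 0.0734 and 0.133). The Reg1 value was 0.14 without cHyper mTEClo replicate 3, the Reg4 value -1.13 without cHyper mTEClo replicate 2 and -3.10 without WT mTEClo replicate 2, and the Reg3g value -0.75 without replicate 3; the mTEClo levels of Reg1 and Reg4 rest on 24 and 35, and on 9 and 27, fragments in WT and cHyper.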

How the results depend on the processing

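Over all alternatives, 679 of the Reg gene values by comparison kept their side of the threshold and did not reverse direction. A further 19 newly passed, 2 no longer passed and 9 changed direction. The cause was not tested. Those kept include mTEClo values of 0, which have no direction. They are Reg2 without WT mTEClo replicate 2 and Reg3d without cHyper mTEClo replicate 1, where no fragment was left. Genes called in the mTEChi genotype comparison (572) were 1455 with DESeq2, 862 with limma-voom, 1251 with the replicate block and 1126 with only the groups compared, and 296 to 678 with libraries left out. For the difference between effects (595) they were 1103 without a filter, 1425 with DESeq2, 1186 with the replicate block and 282 to 629 with libraries left out. Reg genes called in mTEChi (0) were 2 without a filter, 2 with DESeq2, 2 with limma-voom, 1 with the replicate block, 3 with only the groups compared and 0 to 1 with libraries left out. In mTEClo (0) they were 1 without a filter, 1 with DESeq2 and 0 to 1 with libraries left out; for the difference (0) 2, 2 and 0 to 1. Between the cell types they stayed at 7 in WT and were 6 to 7 in cHyper. The block changed no call of a Reg gene other than that of Reg2 in mTEChi. Direction changed for Reg3b in mTEClo with limma-voom (-0.85) and for the Reg2 difference with limma-voom (-0.32). With libraries left out it changed for Reg1 (-0.44 to 1.31) and Reg3b (-2.86 to 1.43) in mTEClo, and for the differences of Reg1 (-1.60 to 0.14), Reg2 (-1.003 to 1.56) and Reg3b (-2.23 to 2.05). The summed WT level ratio of mTEChi to mTEClo was 13.6 in CPM and 18.1 in TPM. The Reg3g share of 69.2% was 82.4% in fragments and 86.0% with the coding length for Reg3g alone. Fitting only the mTEClo groups left 2 of 7 Reg genes tested. DESeq2 gave no adjusted p for Reg3b and Reg3d in several comparisons. In mTEClo, counts of 0 to 5 fragments limit Reg2, Reg3a and Reg3d.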
